A study of Drosophila melanogaster with 12 samples.

Results

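Methylation of adenosine at the N6 position (m6A) is an internal mark of messenger RNA, and 5 genes of its writer complex and its readers were followed in Drosophila melanogaster stage 14 follicles at day 2 and day 12. The genes were found by name: 7 symbols (Ythdf, Ythdc1, fl(2)d, vir, Mettl3, Mettl14 and nito) were looked up in the linear RNA table, and Ythdf, Ythdc1, fl(2)d, Mettl14 and nito were present, out of 5954 listed genes. They account for 7 of 10162 listed transcripts. vir and Mettl3 were not analysed here.

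The follicles came from ovaries of the Oregon R stock, a wild-type laboratory stock, and the labels name no further allele or agent in either group. Stage 14 is the last stage of egg development, when the oocyte is full-grown, its eggshell is complete and new transcription has largely ceased. Linear RNA was sequenced in 3 libraries at day 2 and 3 at day 12, which the labels number as biological replicates. The labels do not say from what event the days are counted. Each transcript has 1 value per day in the files used here, a mean that the authors took over 3 libraries, so neither a value per library nor a spread can be given, and the depth of the libraries is unknown. Whether the deposited unit is FPKM or TPM is not stated.

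In animals, the mark is placed in the nucleus by a large complex. Mettl3 is the catalytic subunit, Mettl14 is its partner that helps to hold the RNA, and Fl(2)d, the fly counterpart of WTAP, links this pair to further subunits, among them Virilizer, Flacc, Hakai and Spenito, the product of nito. Readers with a YTH domain then bind the methylated base: Ythdc1 acts in the nucleus, on splicing, and Ythdf in the cytoplasm. In flies the pathway is best known for the female-specific splicing of Sxl, the master gene of sex determination, in which fl(2)d and vir were first found, and for functions in the nervous system. A full-grown oocyte lives largely on stored RNA, whose translation and decay are regulated after transcription.

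None of the 5 genes was called changed between the days at an adjusted p under 0.05, and all lay well within 2-fold. The cytoplasmic reader Ythdf and the writer subunits fl(2)d and Mettl14 had slightly higher means at day 12, with log2 changes of 0.16, 0.13 and 0.05. The nuclear reader Ythdc1 and the writer subunit nito had lower means, with log2 changes of -0.26 and -0.35. Of the 7 transcripts, 0 passed in the authors' deposited table at an adjusted p under 0.05, as 0.177% of all listed transcripts did. Before adjustment, 2 of the 7 had a p under 0.05 there, the main transcript of Ythdf and that of fl(2)d, both higher at day 12. The authors' significance mark follows this unadjusted threshold, so these 2 carry it. This holds for 16.0% of all listed transcripts, 9.47% with the higher mean at day 12 and 6.56% with the lower. The transcript of Ythdf also had a p under 0.01, as did 5.57% of all. With 7 transcripts, such a number is not a result about the pathway.

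**Figure D1:**
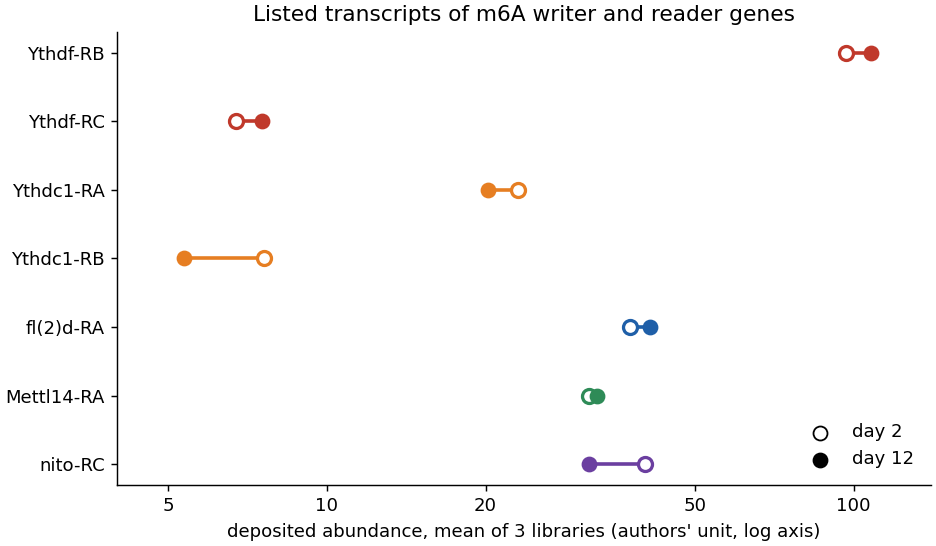
Abundance of each listed transcript of the 5 genes at day 2 (open circles) and day 12 (filled circles), in the authors' unit on a log axis; each point is the authors' mean of 3 libraries, with no error bar because values of single libraries were not used. Both Ythdf transcripts, fl(2)d-RA and Mettl14-RA lie further right at day 12, and both Ythdc1 transcripts and nito-RC further left.

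Among the readers, Ythdf (FBgn0039261) lies on 3R from 25033876 to 25039249 on the minus strand, in dm6 coordinates. Of its 4 annotated transcripts, 2 were listed. Ythdf-RB stood at 96.8 at day 2 and 107.8 at day 12 in the authors' deposited table. Its mean was thus higher by 11.4%, and the authors' deposited table gives p = 0.00562 before and 0.152 after adjustment. It ranked 374 of 10162 transcripts by p, and the change behind that rank is small.

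The other Ythdf transcript, Ythdf-RC, starts 315 nt downstream of Ythdf-RB, shares its 3' end and codes for a protein shorter by 5 residues, of 694 against 699. The authors' deposited table has it at 6.73 at day 2 and 7.52 at day 12, adjusted p = 0.795. The means of both transcripts were higher at day 12 by similar proportions, and Ythdf-RB made up 93.5% of the gene's sum on either day. Together they came to 104 at day 2 and 115 at day 12. CG31115, on the opposite strand, lies inside an intron of Ythdf and shares 0 bases with the exons of the listed Ythdf transcripts.

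Ythdc1 (FBgn0027616), the nuclear reader, lies on 3L from 3370451 to 3374170 on the minus strand, and both of its annotated transcripts were listed. Ythdc1-RA, which codes for 721 residues and has a 3' UTR of 1150 nt, was at 23.1 at day 2 and 20.2 at day 12 in the authors' deposited table. Ythdc1-RB has the same start, an earlier splice site in the first exon and a 3' UTR of 314 nt, and codes for 710 residues. It was at 7.59 at day 2 and 5.36 at day 12. Both means were lower at day 12, that of the short form by more, with log2 changes of -0.19 for Ythdc1-RA and -0.50 for Ythdc1-RB. Their adjusted p in the authors' deposited table was 0.542 and 0.685, respectively. The share of Ythdc1-RB in the gene's sum was 24.7% at day 2 and 21.0% at day 12, a difference that was not tested. The gene summed to 30.7 and 25.5, which is 16.8% less at day 12, and 13.5% of listed genes had a lower log2 change.

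**Figure D2:**
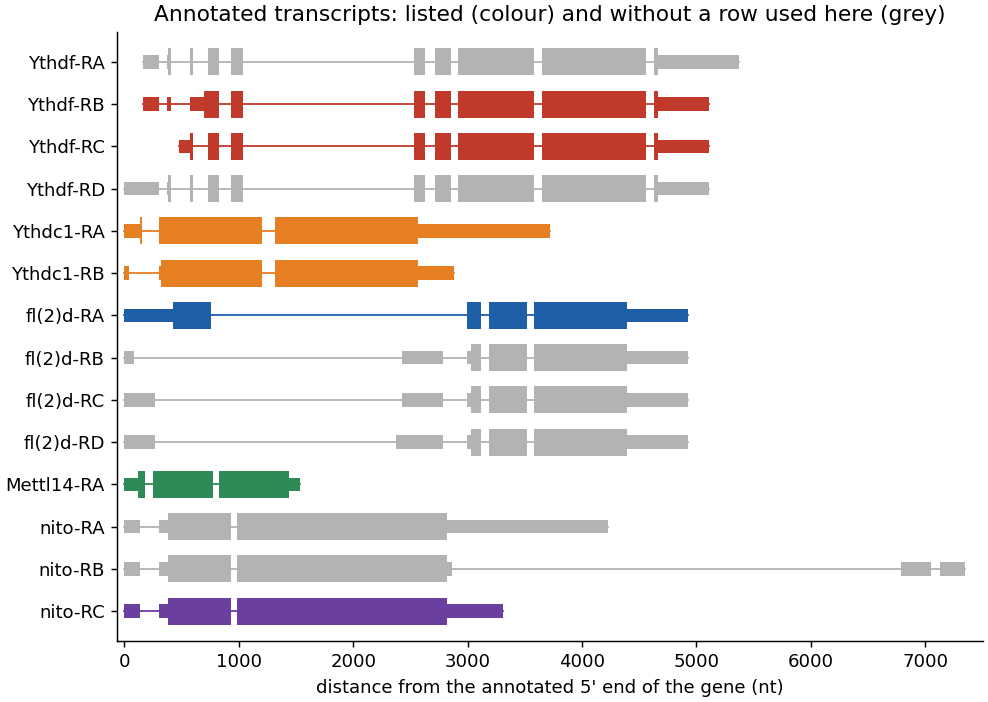
Annotated transcripts of the 5 genes, drawn to scale by distance in nt from the annotated 5' end of each gene, with coding sequence as tall boxes, untranslated exons as low boxes and introns as lines. Coloured transcripts, 7 of 14, were listed; those in grey had no row used here. The listed form of fl(2)d is the one whose first exon holds coding sequence, and the forms of Ythdc1 differ in the length of the 3' UTR.

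Among the writer subunits, fl(2)d (FBgn0000662) lies on 2R from 13819624 to 13824553 on the minus strand. Of its 4 annotated transcripts only fl(2)d-RA was listed, which codes for the long protein of 536 residues; fl(2)d-RB, fl(2)d-RC and fl(2)d-RD, which code for 412 residues, were not analysed here. fl(2)d-RA was at 37.6 at day 2 and 41.1 at day 12 in the authors' deposited table. The mean was higher by 9.23%, and the authors' deposited table gives p = 0.0331 before and 0.260 after adjustment. Of the listed genes, 52.5% had a log2 change at least as far from 0.

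Mettl14 (FBgn0032016), the partner of the catalytic subunit, lies on 2L from 8308427 to 8309961 on the plus strand and has 1 annotated transcript, which codes for 397 residues. The authors' deposited table has it at 31.5 at day 2 and 32.6 at day 12, adjusted p = 0.696. Of the 5 genes it had the smallest change, a log2 change of 0.05 that is close to the median of all listed genes, 0.04. Its last exon shares 86 bp with CG7810 of the opposite strand, which summed to 19.1 and 20.4. No source used here says whether counting used strand, so reads from the shared bases cannot be told apart.

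nito (FBgn0027548) codes for Spenito, an RNA-binding protein of the Spen family whose human counterparts are RBM15 and RBM15B. It lies on 2R from 7962463 to 7969805 on the plus strand, and of its 3 annotated transcripts, which share a coding sequence of 793 residues, only nito-RC was listed. nito-RC was at 40.1 at day 2 and 31.5 at day 12 in the authors' deposited table. It had the largest change of the 5 genes, a mean lower by 21.6%, yet the authors' deposited table gives p = 0.112 before and 0.434 after adjustment. Of all listed genes, 9.27% had a lower log2 change. CG8726 and CG14763 overlap longer annotated forms of nito on the opposite strand, and neither reaches the exons of nito-RC.

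The size of a change and its p did not go together in these transcripts, in either order. In the authors' deposited table Ythdf-RB and fl(2)d-RA had a lower p than nito-RC and the Ythdc1 transcripts, whose shifts were larger. There the p before adjustment was 0.425 for Mettl14-RA, which had the smallest shift, and 0.587 for Ythdf-RC, whose shift was that of Ythdf-RB. Relative to each other, Ythdf and Ythdc1 moved apart by 0.42 on the log2 scale: the ratio of the cytoplasmic to the nuclear reader was 3.38 at day 2 and 4.52 at day 12. Within the writer complex, fl(2)d and nito moved apart by 0.48, from a ratio of 0.938 at day 2 to 1.31 at day 12. Each gene rests on 1 listed form, of 4 annotated for fl(2)d and 3 for nito, so unlisted forms are not covered. The ratio of fl(2)d to Mettl14 was 1.20 at day 2 and 1.26 at day 12. These differences between genes were not tested, since that needs values of single libraries. The ratios also rest on the deposited unit, which is not stated to be per transcript length. For the genes with 1 listed transcript their shift between the days does not depend on length; the sum of Ythdc1, whose transcripts differ in length and in change, would.

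**Figure D3:**
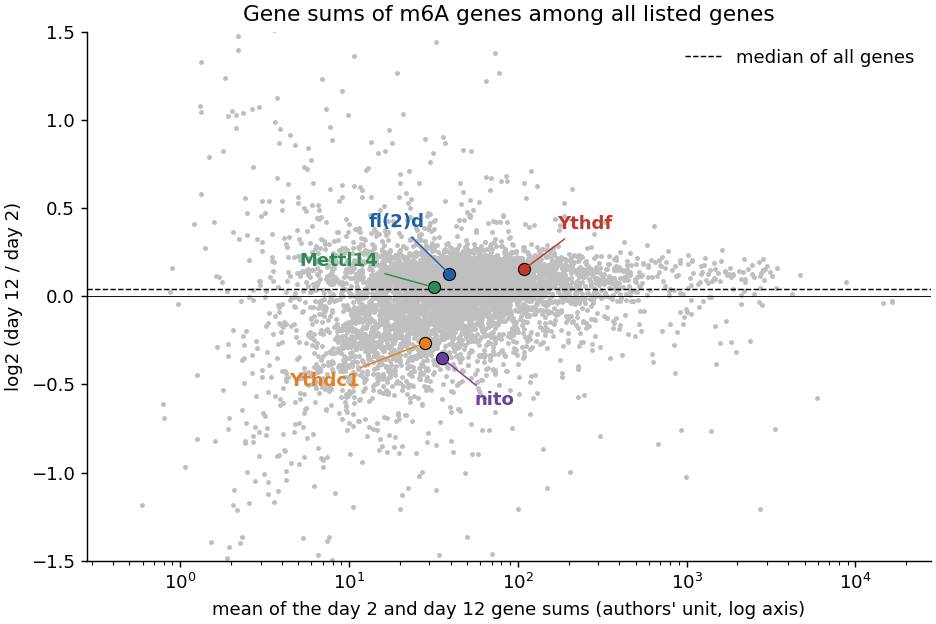
Log2 ratio of day 12 to day 2 against the mean of both days, for the summed values of each listed gene (grey, log x axis), with the 5 m6A genes coloured; the dashed line is the median of all genes, 0.04, and 93 genes beyond 1.5 in size lie outside the plot. Ythdf, fl(2)d and Mettl14 lie above 0 and Ythdc1 and nito below. Of the 5 genes, fl(2)d and Mettl14 lie inside the interquartile range of all genes, -0.13 to 0.14, and Ythdf, Ythdc1 and nito outside it.

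Over all listed genes, 58.5% had a higher and 41.5% a lower sum at day 12, and the interquartile range of log2 changes ran from -0.13 to 0.14. Sums at least 2-fold apart were found for 2.60% of genes and for 0 of the 5. Ythdf lay just above this range, fl(2)d and Mettl14 within it, and Ythdc1 and nito below it. Oocyte and germline markers were present, 7 of 7, and summed to 4233 at day 2 and 4728 at day 12. Of 11 genes named as follicle cell markers 6 were listed, summing to 385 and 168, 2 with a higher and 4 with a lower sum. The chorion gene Cp15, at 254 and 20.8, makes up more than this whole difference. Without it, a choice made after seeing the data, the other 5 summed to 131 and 147. That sum hides a split, since the yolk protein genes had far lower sums at day 12. Yp1 was at 8.27 and 1.15, Yp2 at 6.15 and 0.62, and Yp3 at 6.77 and 0.66. Their day 12 values are near the low end of the data, where every listed transcript reached at least 0.68 on its higher day. The more abundant Ilp8, at 50.1 and 80.1, and sn, at 59.7 and 64.9, were higher. Whether RNA of the 6 genes, sn among them, came from follicle cells only was not tested. The median log2 change of the 6 was -3.08, and none was called. The lowest adjusted p of a main transcript among them was 0.129 in the authors' deposited table, for Cp15. Of the muscle, hemocyte and fat body markers 0 had a row used here. The part of these marker differences in the values of the 5 genes was not tested, and fewer cells of a type cannot be told apart from less RNA per cell in such bulk samples.

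Of 9 genes named for the whole writer complex and its readers, 6 were listed, 3 with a higher and 3 with a lower sum at day 12. The additional one is Hakai, an E3 ubiquitin ligase that is also a subunit of the complex, named here with its values known. The authors' deposited table has it at 26.5 at day 2 and 21.7 at day 12, adjusted p = 0.476. Hakai, nito and Ythdc1 thus had lower means at day 12, with log2 changes of -0.29, -0.35 and -0.26, and none was called. The median log2 change of the 6 was -0.11, against 0.04 over all listed genes, and falls in the gap between the 3 higher and the 3 lower genes. Judged by its most abundant transcript, 2 of the 6 had p under 0.05 before adjustment in the authors' deposited table, both with the higher sum at day 12. Over all genes this share was 22.5%, 13.5% with the higher and 9.05% with the lower sum at day 12.

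Sxl is the classical target of the writer complex through its splicing, which was not analysed here. Sxl and 8 other genes named for that splicing or for steps below it were all listed. Sums were higher at day 12 for 7 and lower for 2, with a median log2 change of 0.09 and 0 called. U2af50, the large subunit of the factor that recognises the 3' splice site, was at 188 and 196, and snf, a protein of the U1 and U2 particles, at 174 and 185 in the authors' deposited table. Sxl itself, named after its values were seen, was the 1 gene of the 9 whose most abundant transcript had a p under 0.05 before adjustment, against 22.5% of all genes. The authors' deposited table has that transcript at 14.3 at day 2 and 21.0 at day 12, adjusted p = 0.215. The 5 listed Sxl transcripts summed to 43.7 and 54.6. The sum for tra2, also named with its values seen, a splicing factor that acts below Sxl with tra, was 102 at day 2 and 85.3 at day 12.

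Genes that act with Ythdf or on the fate of stored messages were divided evenly by direction. Of 15 named, among them the Ythdf partner Fmr1, the CCR4-NOT deadenylase and maternal repressors, 14 were listed, 7 with a higher and 7 with a lower sum, and 0 were called. The median log2 change was -0.04. The 2 most abundant were me31B, an RNA helicase of repressed messages, and tral, its partner. The main transcript of me31B was at 2817 and 3174 (adjusted p = 0.208 in the authors' deposited table), and that of tral at 367 and 319 (adjusted p = 0.279 there). These partners thus had changes in opposite directions, with log2 changes of their sums of 0.17 and -0.20. Before adjustment, the authors' deposited table gives a p under 0.05 to the main transcripts of me31B and Pop2, with higher sums, and of tral and bel, with lower sums. Pop2 and bel are named after their values were seen. These are 4 of 14 genes, near the 22.5% of all genes. The main transcript of Pop2 was at 42.7 and 83.0, while the gene summed to 99.0 and 108. Other listed Pop2 transcripts differed in direction.

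Other RNA modification enzymes, outside the complex and readers above, were also mixed. This list was not limited to marks other than m6A. Of 20 named, 12 were listed, 8 with a higher and 4 with a lower sum at day 12, with a median log2 change of 0.08 and 0 called. Nop60B, the pseudouridine synthase of ribosomal RNA, was at 372 and 393, and Nsun5, an RNA methyltransferase of the cytosine family, at 58.8 and 66.2 in the authors' deposited table. An unadjusted p under 0.05 was given there to 5 of the 12 main transcripts, named after their values were seen, against 22.5% of all genes. With 12 genes this is no result about the list. Tgs1, which trimethylates caps of small nuclear RNA, and Hen1, which methylates the ends of small RNAs, were higher, at 33.7 and 39.4 and at 30.2 and 34.8. Fib, the methyltransferase of nucleolar guide particles, the cytosine methyltransferase Nsun2 and l(1)G0020, the fly counterpart of the acetyltransferase NAT10, were lower. Fib was at 40.8 and 33.7, Nsun2 at 22.2 and 18.4, and l(1)G0020 summed to 32.7 and 24.5.

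**Figure D4:**
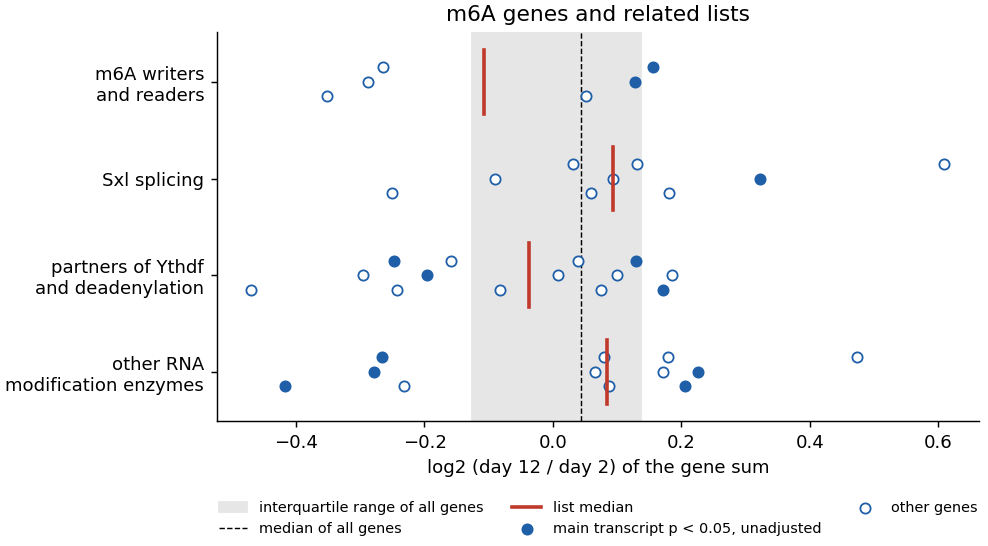
Log2 ratio of day 12 to day 2 of the gene sums for the listed members of 4 gene lists; each circle is a gene, filled where the authors' p of its most abundant transcript was under 0.05 before adjustment, with the list median in red, the median of all genes dashed and the interquartile range of all genes shaded. The m6A genes fall into 3 above and 3 below 0, and their median of -0.11 lies in the gap between them.

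The genes nearest to each of the 2 writer and reader genes with a low p were found by straight-line distance between log2 sums on both days, a measure over 2 day means only. Nearest to Ythdf were slmo, l(1)10Bb and PlexA, each within 0.024. slmo summed to 102 and 116, l(1)10Bb to 103.2 and 114, and PlexA to 102 and 117. Nearest to fl(2)d were CG6179, CG6066 and CG13994, at distances of 0.0040, 0.010 and 0.014. CG6179 was at 37.7 and 41.2, CG6066 at 37.7 and 41.4, and CG13994 at 37.3 and 40.9 in the authors' deposited table. These genes were picked for their closeness on both days, so their similar levels are no separate finding.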

How the data were processed

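The submitters' processing notes name HISAT2, StringTie, STAR, DESeq2 and build dm6; which tool did what, in which version and with which annotation and test, is not given in the sources. For linear RNA the authors deposited 1 signal value (abundance) per transcript and day; the file headers place libraries 1 to 3 behind day 2 and 4 to 6 behind day 12. Beside it stand a p-value and an adjusted p-value, and the adjusted p-value the authors deposited equals a Benjamini-Hochberg adjustment over all 10162 listed transcripts. The deposited circRNA table names no host genes and was not used.

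For each gene, the values of its listed transcripts were added up by day, and the log2 ratio was taken with no pseudocount (Python 3.11.15, pandas 2.3.3). A transcript was called at an adjusted p under 0.05. Because the files gave means, no test of gene sums was made, and the authors' p stands for each transcript. The steps were tested on simulated data. Transcript models come from Ensembl release 115 (BDGP6, dm6 coordinates). Named were all transcripts of the looked-up genes, called members of each list or else its 2 most abundant, and the 3 genes nearest to Ythdf and fl(2)d. The members and lists were chosen with earlier results of these data known. Alternatives covered the choice of transcripts, filter, pseudocount, scaling and p threshold.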

Additional observations from a re-analysis of the deposited data

How the results depend on the processing

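For the 5 genes, 13 of 30 recomputed log2 changes repeat the reported value by construction: none has an assembled transcript or one with a mean under 1, and 3 have a single listed transcript. The 17 that could move did so by at most 0.07. They took the most abundant transcript for Ythdf and Ythdc1, a pseudocount of 1, equal totals, or the all-gene median set to 0. None of them could change a sign, so the kept signs are no support. A pseudocount cannot change it, and the listed transcripts of Ythdf, and likewise of Ythdc1, shared a direction. Both scalings shifted all genes by less than the smallest change, that of Mettl14. Ythdf ranged from 0.11 to 0.16, fl(2)d from 0.08 to 0.13, Mettl14 from 0.01 to 0.05, Ythdc1 from -0.31 to -0.19 and nito from -0.40 to -0.34. The number of called transcripts stayed at 0 when adjusted over annotated transcripts or over those with a mean of at least 1. At an unadjusted p under 0.01, 1 of the 7 transcripts passed in place of 2. With the most abundant transcripts only, the median of Ythdf partners and deadenylation genes was -0.14 in place of -0.04. A move of under 0.1 on the log2 scale was taken as no change, because no spread between libraries was at hand. No paired analysis was possible because the columns hold means over libraries, and no library could be left out. The unknown depth limits what the absence of calls can show.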

Other observations

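Adar deaminates adenosine to inosine and so acts on the same base as the m6A writers. Of the 12 listed RNA modification enzymes outside the m6A complex, Adar had the largest positive log2 change, 0.47. It was picked out after its values were seen. Its 6 listed transcripts summed to 24.6 at day 2 and 34.1 at day 12. Single transcripts differed in direction, with the most abundant one, FBtr0305497, at 8.66 and 5.15, and the lowest unadjusted p of any Adar transcript in the authors' deposited table was 0.591.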
